A study of Mus musculus with 2 samples.

Results

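The genes described here are the very long protein-coding genes of the mouse autosomes, those whose RefSeq span from start to end is 300 kb or more in mm10. Of 20665 autosomal protein-coding genes, 533 (2.58%) met that length, and each was placed in 1 of 3 classes by the H3K4me3 peaks called at it. A gene counted as marked at an end when any base of a peak fell within 1 kb of its start or its end, on either side. It counted as marked inside only when a peak lay within the gene and none at an end, and otherwise as having no peak. The length rule used no measured value. The median span was 451 kb, the longest was 2271 kb, and together the genes spanned 304 Mb.

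Histone H3 trimethylated at lysine 4 (H3K4me3) was mapped by chromatin immunoprecipitation and sequencing in adult mouse neural progenitor cells, with no treatment given in the labels, grown in N2 medium supplemented with EGF and bFGF. The labels gave 1 H3K4me3 library, marked "con", whose peak list is named after EGF, and 1 input library from the same kind of cells, and they gave no meaning of "con" and no strain, genotype, sex or age beyond adult. With 1 library there was no replicate and no test. Intervals cover counting error over genes or peaks only, at 95%, and measure no spread between cultures.

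H3K4me3 is a mark that sits over the first nucleosomes of active genes and of many genes held ready for activity, and CpG-rich starts carry it most often. In neural tissue, very long genes are known for encoding cell adhesion molecules, ion channels, receptors and synaptic proteins, and many of them make several transcripts from internal starts. Because the start of such a gene is a tiny part of its span, a peak at the start and a peak elsewhere in the gene can be told apart.

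Peaks were called from 18156769 H3K4me3 tags against 17831241 input tags, and 18709 of the 19265 peaks were on autosomes. Having no peak means that nothing passed the caller's threshold, and the weakest listed peak held 13 tags. The label of the cells was checked against markers. Of 12 neural progenitor markers, 10 had an end peak and the other 2 had an inside peak. Of 8 neuron markers, 4 had an end peak, a share near that of all autosomal coding genes (57.8%), and of 4 oligodendrocyte markers, 1 did. None of 4 microglia markers and none of 3 endothelium markers had one, although 1 microglia marker and 2 endothelium markers had an inside peak.

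The starts of 5 very long genes are shown, because they include marked and unmarked starts of genes over 1000 kb, and 1 gene with both an unmarked outer start and a marked internal one. Each window runs from 250 bases before to 50 bases after a start in RefSeq GRCm38.p6, the assembly that mm10 names, and is written 5′ to 3′ on the strand of the gene. Capitals mark the dinucleotide CG, searched as the letters CG, which read the same on both strands. The Lsamp window was chr16:39984114-39984413 on the plus strand, the Macrod2 window chr2:140395180-140395479 on the plus strand, and the Cntnap2 window chr6:45059811-45060110 on the plus strand. The Rbfox1 window was chr16:5884543-5884842 on the plus strand, and the Robo2 windows were chr16:75447244-75447543 and chr16:74411776-74412075 on the minus strand.
Lsamp, marked: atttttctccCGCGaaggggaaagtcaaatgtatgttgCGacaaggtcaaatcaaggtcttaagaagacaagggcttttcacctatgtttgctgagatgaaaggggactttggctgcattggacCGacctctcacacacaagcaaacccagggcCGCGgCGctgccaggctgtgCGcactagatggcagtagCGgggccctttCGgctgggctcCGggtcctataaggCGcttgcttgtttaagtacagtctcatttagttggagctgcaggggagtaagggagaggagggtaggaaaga
Macrod2, marked: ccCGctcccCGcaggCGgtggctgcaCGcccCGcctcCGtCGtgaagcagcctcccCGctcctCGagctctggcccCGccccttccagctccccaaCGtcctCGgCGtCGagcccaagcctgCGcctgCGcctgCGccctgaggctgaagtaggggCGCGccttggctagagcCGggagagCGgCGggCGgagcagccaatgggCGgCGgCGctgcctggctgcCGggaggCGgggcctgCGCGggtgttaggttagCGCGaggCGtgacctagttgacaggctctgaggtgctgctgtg
Cntnap2, no peak: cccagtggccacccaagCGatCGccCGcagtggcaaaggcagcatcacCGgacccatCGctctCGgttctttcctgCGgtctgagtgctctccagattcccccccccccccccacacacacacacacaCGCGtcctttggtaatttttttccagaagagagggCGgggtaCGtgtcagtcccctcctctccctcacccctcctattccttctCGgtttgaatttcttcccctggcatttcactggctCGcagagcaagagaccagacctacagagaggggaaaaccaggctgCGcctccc
Rbfox1, no peak: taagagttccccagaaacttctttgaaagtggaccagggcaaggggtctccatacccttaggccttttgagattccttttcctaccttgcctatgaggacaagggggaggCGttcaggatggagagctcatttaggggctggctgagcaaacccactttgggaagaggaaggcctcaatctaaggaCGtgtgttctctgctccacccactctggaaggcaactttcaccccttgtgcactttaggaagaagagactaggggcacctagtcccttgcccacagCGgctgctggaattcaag
Robo2 outer start, no peak: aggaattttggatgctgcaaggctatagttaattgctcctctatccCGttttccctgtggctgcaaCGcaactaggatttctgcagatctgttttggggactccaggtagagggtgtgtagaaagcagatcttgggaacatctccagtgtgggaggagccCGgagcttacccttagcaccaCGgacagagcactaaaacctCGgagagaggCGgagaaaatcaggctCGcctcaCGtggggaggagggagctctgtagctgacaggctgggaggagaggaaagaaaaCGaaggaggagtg
Robo2 internal start, marked: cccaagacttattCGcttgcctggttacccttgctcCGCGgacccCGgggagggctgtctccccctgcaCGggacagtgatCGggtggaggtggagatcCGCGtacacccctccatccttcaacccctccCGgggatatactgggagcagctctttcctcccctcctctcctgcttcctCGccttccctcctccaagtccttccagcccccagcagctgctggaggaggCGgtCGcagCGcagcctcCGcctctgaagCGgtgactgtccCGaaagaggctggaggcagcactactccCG
The Macrod2 window held 33 CG, the Robo2 internal window 17, the Cntnap2 window 14, the Lsamp window 12, the Robo2 outer window 9 and the Rbfox1 window 3. Over 20085 such windows of 16457 autosomal coding genes the median was 14 CG, with quartiles of 4 and 25, and 95.6% of the windows held at least 1. The unmarked Cntnap2 window thus held as many CG as the median window and more than the marked Lsamp window. The table gave a start for 405 of the 533 genes (76.0%), which is too few for a comparison of CG content over the very long genes, so none was made.

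Most very long genes carried H3K4me3 at an end. An end peak was called at 334 of the 533 genes, 62.7% (exact binomial interval 58.4% to 66.8%), beside 57.8% of all autosomal coding genes. An inside peak and no end peak was called at 83, or 15.6% (12.6% to 18.9%), beside 5.31% of all. No peak was called at 116, or 21.8% (18.3% to 25.5%), beside 36.9% of all. The share with an end peak was 57.7% among the 20132 genes under 300 kb, which is 5.01 percentage points below the very long genes (interval of shorter minus very long, -9.07 to -0.771). The interval took in 0 without predicted genes (-2.13 points, -6.22 to 2.13), for peaks of fold 10 or more (-2.86, -7.02 to 1.42), for peaks with a -log10 p of 10 or more (-3.90, -8.02 to 0.360) and by summit (-0.419, -4.68 to 3.88). The genes under 300 kb include 7343 genes under 10 kb, of which 41.2% had an end peak. Against the 6662 genes of 30 to 300 kb the order was the other way: 69.9% of these had an end peak, 7.21 points above the very long genes (3.06 to 11.5). With the length limit at 200 kb that difference was 3.08 points (-0.0731 to 6.35).

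The share marked at an end climbed with length and then dropped within the very long genes. It was 64.1% at 10 to 30 kb, 69.4% at 30 to 100 kb and 71.2% at 100 to 300 kb. Among the very long genes it was 69.1% at 300 to 500 kb (219 of 317 genes), 57.1% at 500 to 1000 kb (92 of 161) and 41.8% at 1000 kb or more (23 of 55). The difference between the shortest and the longest of these 3 classes was 27.3 points (13.1 to 40.3). The share marked inside only was 14.2% at 300 to 500 kb, 13.7% at 500 to 1000 kb and 29.1% at 1000 kb or more, and the share with no peak was 16.7%, 29.2% and 29.1%. The genes of 500 to 1000 kb thus had no peak about as often as the longest genes, and the longest had an inside peak alone more often than both shorter classes. The median span was 422 kb for genes marked at an end, 458 kb for genes marked inside only and 546 kb for genes with no peak.

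**Figure D1:**
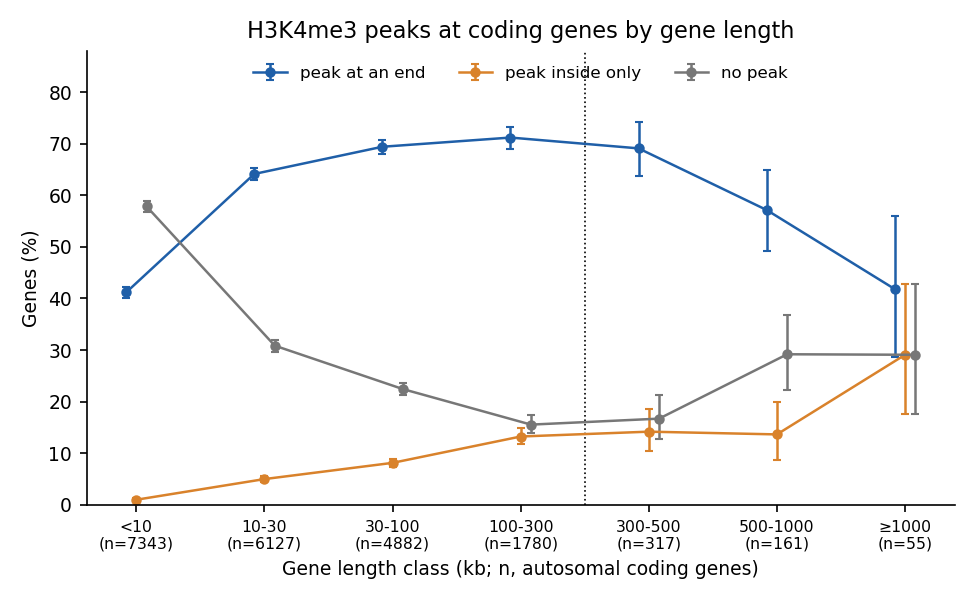
Percent of autosomal protein-coding genes in each class of peak position by gene length class in kb, with 95% exact binomial intervals. The end-peak share is 71.2% at 100 to 300 kb and 41.8% at 1000 kb or more.

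Very long genes less often had an end peak that they shared with another gene. Among end-marked very long genes, 29 (8.68%, 5.89% to 12.2%) had only an end peak that also lay at an end of another coding gene, against 18.9% of the end-marked genes of 30 to 300 kb. Counting only end peaks that lay at an end of no other coding gene, the share was 57.2% in very long genes (305 of 533), and the difference to genes of 30 to 300 kb was -0.574 points (-4.88 to 3.83). Within the very long genes the drop remained under that count, at 24.9 points between 300 to 500 kb and 1000 kb or more (10.6 to 37.7). Genes just under the length limit were AW554918 at 298.6 kb, Atp2b2 at 298.8 kb and Akap13 at 299.1 kb, with an end peak at the first and the last. Genes just over it were Zfp423 at 300.2 kb, Kcnq3 at 300.3 kb and Jazf1 at 300.6 kb, all with an end peak.

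In very long genes with a listed start, the end peak lay on the start side of the gene. Of the 334 end-marked genes, 254 had a start in the RefSeq table, and in 251 the peak was on the start side only, in 3 on both sides and in 0 on the far side only. Among 3708 such genes of 30 to 300 kb, 33 had a peak on the far side only and 122 on both. A peak within 1 kb of a listed start was present at 236 of the 254 (92.9%, 89.0% to 95.7%). That share was lower than the 97.1% (96.5% to 97.6%) in the 3708 genes of 30 to 300 kb. For the 298 genes with a single end peak of their own, the peak reached a median of 1510 bp into the gene and 520 bp outward, and its summit lay a median of 385 bp inside the gene. The same medians in genes of 30 to 300 kb were 1533 bp, 628 bp and 347 bp.

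The end peaks were weaker than those of shorter genes by the caller's own fold enrichment over input. The strongest end peak of each gene had a median fold of 32.6 in very long genes (quartiles 20.3 and 41.4), 39.8 in genes of 30 to 300 kb and 27.5 in genes of 1000 kb or more. The median width was 2071 bp against 2270 bp in genes of 30 to 300 kb, and the median tag count was 289 against 361. A fold under 10 was found at 21 of the 334 (6.29%, 3.93% to 9.45%) and at 3.22% of end-marked genes of 30 to 300 kb. The overlapping records Gm37013, Gm38666 and Gm38667 have the same end peak, with a fold of 5.42. It was counted for each of them, and the interval makes no allowance for it. A few of the 21 weakly marked genes are named here, chosen after their values were seen. Among them were Reln, which encodes the extracellular guidance protein reelin, Grin2b, an NMDA receptor subunit, and Shank2, a scaffold of the postsynaptic density. The 21 also included Dnah11, with a fold of 6.51, and Cfap299, with a fold of 6.9, and the names do not describe the whole set.

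**Figure D2:**
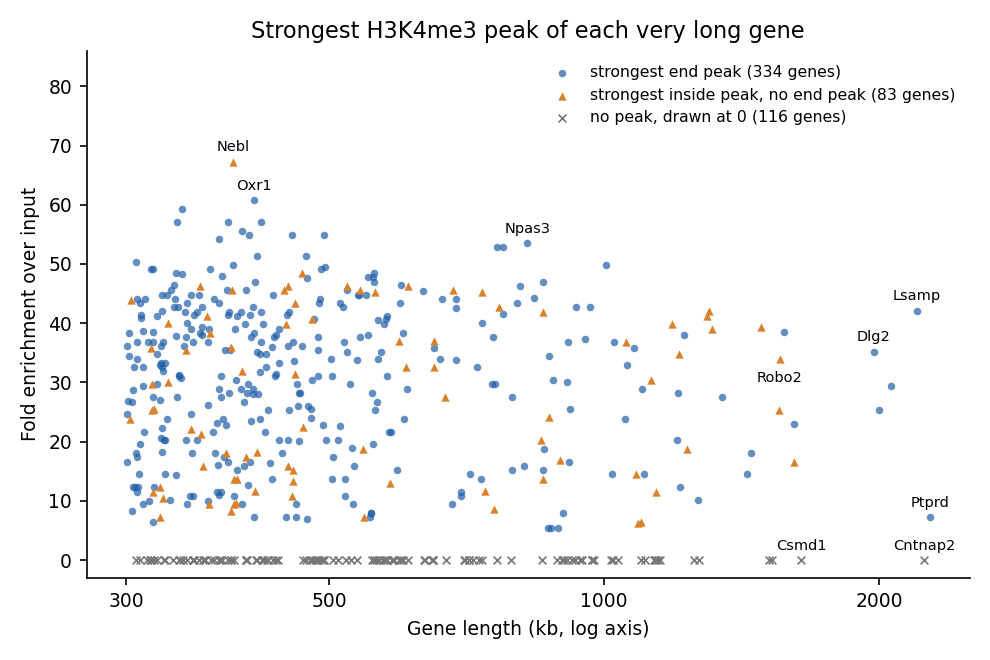
Fold enrichment over input of the strongest peak of each very long gene (vertical axis) against gene span in kb (horizontal, log scale), with circles for end peaks, triangles for the strongest inside peak of genes marked inside only and crosses at 0 for genes with no peak. The end peaks range from a fold of 5.42 to 60.75, and the median at 1000 kb or more is 27.5.

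The strongest end peaks belonged to genes of several roles. Oxr1, an oxidation resistance gene on chromosome 15, had a fold of 60.75 over a peak of 5577 bp with 1118 tags. Vav3, a guanine nucleotide exchange factor on chromosome 3, had a fold of 59.3 over 5748 bp. Glis3 (a zinc finger transcription factor), Ltbp1 (a binding protein of latent TGF-beta) and Rere (a transcriptional corepressor) each had a fold of 57.1, over 4052, 2514 and 4518 bp. The widest end peaks went up to 11304 bp. Arhgap26, a GTPase-activating protein on chromosome 18, had that peak, which it shared with the neighbouring end of Spry4, and cannot be assigned to either gene. Npas3, a bHLH-PAS transcription factor on chromosome 12, had 10065 bp at a fold of 53.5 with 1799 tags. The protocadherin gene Pcdh7 had 9427 bp, the E protein gene Tcf4 8879 bp and Maml2, a coactivator of Notch, 6695 bp. Width and fold did not go together in all of these, since Maml2 had a fold of 28.0 and Tcf4 of 30.7, under the median of all end-marked very long genes.

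The 10 longest genes held all 3 classes. Ptprd, a receptor tyrosine phosphatase that organises synapses, was the longest, at chromosome 4, 75941237 to 78211742, and its end peak had a fold of 7.23 and 19 tags over 528 bp. A stronger peak, with a fold of 22.4, lay 509 kb from its nearer end, at an end of Gm42303. Cntnap2, which encodes the contactin-associated protein Caspr2 of axons, spans 2241 kb of chromosome 6 (45060061 to 47301393) and had no peak at all. Lsamp, an immunoglobulin-family adhesion gene of the limbic system on chromosome 16 (39984254 to 42181679), had a fold of 42.1 over 2439 bp at its outer start and of 26.0 at a listed internal start. These 3 neighbours in length therefore ran from no peak to one of the stronger end peaks.

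Lrp1b, of the LDL receptor family on chromosome 2, had an end fold of 29.3, and Macrod2, an ADP-ribosyl hydrolase on the same chromosome, of 25.3. Macrod2 also had an inside peak with a fold of 26.8, which lay at an end of Flrt3, a smaller adhesion gene within it. Dlg2, the postsynaptic scaffold PSD-93 on chromosome 7, had a fold of 35.2 in a peak shared with Tmem126b. Csmd1, a large membrane protein gene of chromosome 8 with complement-related domains, had no peak. Nrxn3, a presynaptic adhesion gene of chromosome 12, had no end peak and a fold of 16.6 at a listed internal start. Fhit, a nucleotide hydrolase gene on chromosome 14, had an end fold of 22.9 and no inside peak, whereas Ctnna3, an alpha-catenin gene on chromosome 10, had an end fold of 38.5 and 6 inside peaks. Of the 10, 7 had an end peak, 1 an inside peak only and 2 no peak.

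**Figure D3:**
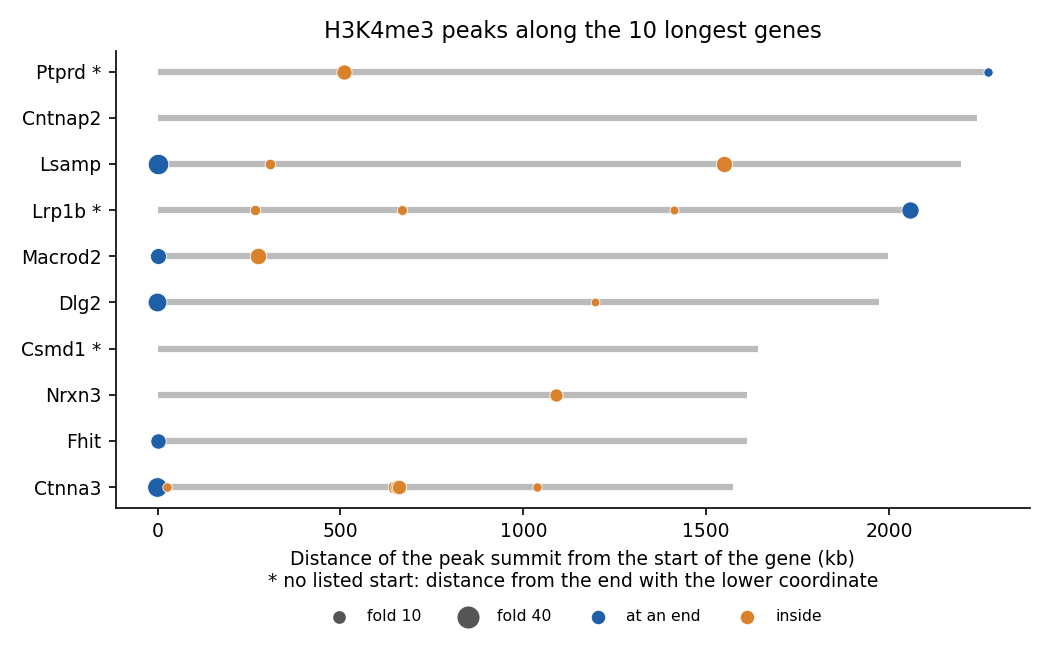
Positions of H3K4me3 peaks along the 10 longest genes, drawn to scale in kb from the listed start (from the lower coordinate for Ptprd, Lrp1b and Csmd1, which have none listed), with point size by fold enrichment, blue for end peaks and orange for inside peaks. Cntnap2 and Csmd1 hold no peak, and Nrxn3 holds 1, inside the gene.

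Adhesion and guidance genes among the very long genes had an end peak less often than their shorter relatives. Over 5 lists of adhesion, guidance and receptor phosphatase genes, 29 of 62 very long genes had an end peak (46.8%, 34.0% to 59.9%) against 98 of 138 shorter ones (71.0%, 62.7% to 78.4%), a difference of 24.2 points (9.58 to 38.0). Of the 62, 13 were marked inside only and 20 had no peak. Of the 138 shorter ones, 10 were marked inside only and 30 had no peak, so part of the difference lay in genes marked inside only. Of the 16 lists of gene families used, 15 held long and shorter genes, and in 12 the end-peak share was lower in the long ones. The interval of the difference excluded 0 in 3 of the 15. For comparison, 217 of the 334 very long genes outside every list (65.0%) had an end peak, and 117 of the 199 inside a list (58.8%).

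In neurexins and other trans-synaptic adhesion genes, the first of those 3 families, 5 of 16 long members had an end peak against 19 of 25 shorter ones (interval of the difference, 13.6 to 65.9 points). Nlgn1, a postsynaptic neuroligin gene, had an end fold of 30.1 and a stronger peak, of 43.4, at a listed internal start. Cntnap2 and Nrxn3 were the longest without an end peak. The related genes Cntnap5a, Cntnap5b and Cntnap5c had no peak, while Cntnap4, also related, had an end fold of 9.4 with 49 tags. How reads shared between similar genes were placed is not given in the labels, so these values are uncertain, and its part in the result was not tested.

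Axon guidance genes, the second of them, had an end peak in 8 of 16 long and 43 of 53 shorter members (5.83 to 54.6 points). The receptor gene Robo1, whose product binds Slit proteins, had an end fold of 14.5 and an inside fold of 41.2 at a listed start that is also at an end of Gm29908. Robo2, its relative on the same chromosome (73891976 to 75447443), had no end peak, and its strongest peak, with a fold of 34.0 over 5302 bp, covered the internal start shown above, 1035618 bp from the outer end. In both Robo genes the strongest peak thus lay inside and not at an outer end. Sema6d, a transmembrane semaphorin, had an end fold of 41.2 and an inside fold of 55.7, and Dcc, a netrin receptor gene on chromosome 18, had no peak.

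Cadherins were marked at an end in 3 of 9 long members and 12 of 24 shorter ones. Cdh4 had an end fold of 36.9 and Pcdh9 of 30.4. Pcdh15, a cadherin of hair cell tip links, and Cdh13, which lacks a transmembrane domain, had inside peaks only, with folds of 25.3 and 39.8. Pcdh15 carried its strongest inside peak 2.98 kb from an end, just past the end window, and Cdh13 carried its own 144 kb away.

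Immunoglobulin adhesion genes were marked at an end in 8 of 15 long members, among them Cadm2 with a fold of 42.8, while the contactin gene Cntn5 and the IgLON gene Opcml had no peak. Receptor phosphatases stood apart from the other adhesion lists in their count, with an end peak at 5 of 6 long members and 10 of 14 shorter ones. Ptprn2 had an end fold of 15.2 and an inside fold of 41.9, and Ptprt had no peak.

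Channel and receptor genes among the very long genes had an end peak about as often as their shorter relatives, within a wide interval. Over 4 lists, 24 of 44 very long genes had an end peak (54.5%, 38.8% to 69.6%) against 82 of 163 shorter ones (50.3%, 42.4% to 58.2%), and the difference of shorter minus long was -4.24 points (-19.9 to 12.1). Potassium channels had an end peak in 6 of 14 long and 39 of 77 shorter members. Kcnq5 of the M-current had an end fold of 26.8 and Kcnma1, the large-conductance calcium-activated channel, of 14.5, while Kcnip4, a channel-interacting protein, and Kcnh7 had no peak. Calcium, sodium and other cation channels had an end peak in 9 of 14 long and 26 of 56 shorter members. The calcium channel subunit gene Cacna2d3 had an end fold of 15.9 and Ryr2, a calcium release channel of the endoplasmic reticulum, of 7.23 with 19 tags. These are the longest marked genes of each list, and the median end fold over all 9 marked cation channel genes was 33.3, with a range of 7.23 to 46.4.

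Inside peaks of 2 L-type calcium channel genes lay at other genes. Cacna1c had its strongest peak, with a fold of 46.3, at an end of Dcp1b, and Cacna1d had one of the same fold at an end of Dcp1a. Trpm3, a cation channel gene, had 6 inside peaks, the strongest with a fold of 13.7. Glutamate receptors had an end peak in 8 of 13 long and 8 of 12 shorter members. Grm8 had an end fold of 18.8, and Grm7 and Grid1 had no peak. Among 3 long GABA receptor genes, Gabrb1 had an end fold of 22.8 in a peak shared with Gabra4, and Gabrg3 and Gabbr2 had no peak.

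Synaptic scaffold and release genes were marked at an end in 11 of 15 long members and 36 of 47 shorter ones. Erc2, a protein of the presynaptic active zone, had an end fold of 15.2. Magi2, a postsynaptic scaffold, had inside peaks only, the strongest with a fold of 39.3 at 2.52 kb from an end, and Dlgap1, another scaffold of the postsynaptic density, had 5 inside peaks of up to 20.3.

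Cytoskeletal linkers had the highest share of the 16 lists, with an end peak at 11 of 12 long members (91.7%, 61.5% to 99.8%) and 19 of 25 shorter ones. Ctnnd2, delta-catenin, had an end fold of 47.0 with 1035 tags. Ctnna2, a neural alpha-catenin gene, was the 1 without, and had an inside peak with a fold of 6.51. A list of 18 very long genes known from common chromosomal fragile sites, which break under replication stress, had an end peak at 15 (83.3%, 58.6% to 96.4%), an inside peak only at 1 and no peak at 2, Cntnap2 and Csmd1. No shorter gene was in that list, so it could not be set against shorter relatives.

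Transcription factors and cofactors had an end peak in 20 of 26 long and 67 of 79 shorter members. Auts2, an activator within a Polycomb complex, had an end fold of 14.5 and an inside fold of 49.9 at 100 kb from an end. Sox5, a SoxD factor, had end and inside folds of 37.3 and 37.6. The retinoic acid receptor gene Rarb had an inside peak only, with a fold of 37.0 at a listed start. RNA-binding proteins of neural cells, the other family whose interval excluded 0, had an end peak in 2 of 6 long and 19 of 23 shorter members (7.63 to 75.1 points). Msi2, a Musashi protein of stem and progenitor cells, had an end fold of 54.2 and Khdrbs2 of 15.9. Rbfox1, a splicing factor of neurons whose outer start is shown above, had no peak over 1528 kb, and Rbms3 had an inside fold of 36.9 at a listed start that is also at an end of Gm17396.

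Cyclic nucleotide and kinase genes had an end peak in 8 of 13 long and 33 of 47 shorter members. Prkg1, a cGMP-dependent kinase gene, had an end fold of 20.3 and an inside fold of 48.3 at an end of Cstf2t. The cAMP phosphodiesterase genes Pde4b and Pde4d held 17 and 10 inside peaks. Pde4b also had an end peak with a fold of 13.7. Pde4d had none, and Pde1c had an inside fold of 12.9. Growth factor receptors and ligands had an end peak in 3 of 10 long and 30 of 53 shorter members. Erbb4, a neuregulin receptor, had an end fold of 35.7 over 3973 bp, and Bmpr1b, a BMP receptor, of 23.9. Among the neuregulin ligands, Nrg3 had no peak and Nrg1 had only an inside peak with a fold of 14.5, at an end of Gm26578.

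**Figure D4:**
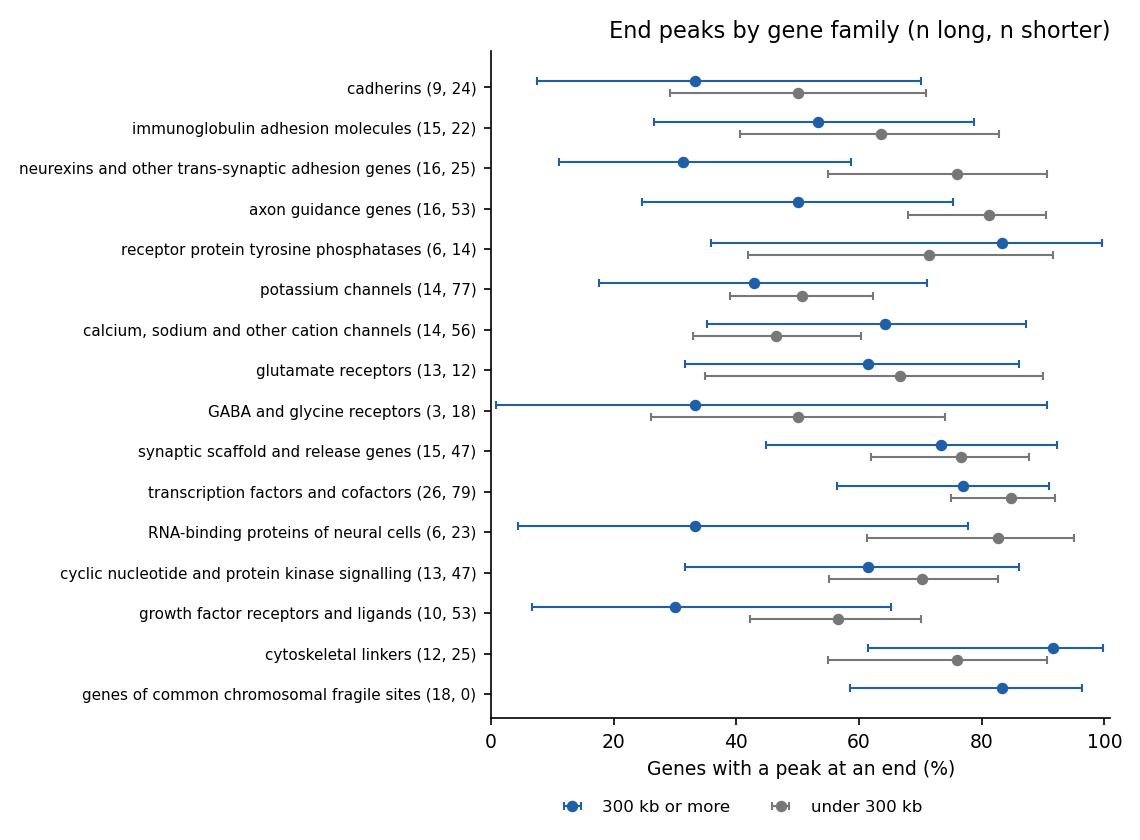
Percent of genes with an end peak in each gene family, for very long and shorter members, with 95% exact binomial intervals. Neurexins and other trans-synaptic adhesion genes sit at 31.2% for very long and 76.0% for shorter members, and cytoskeletal linkers at 91.7% and 76.0%.

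Away from their ends, very long genes held peaks often per gene and sparsely per length. At least 1 inside peak was called in 293 of the 533 (55.0%, 50.6% to 59.3%), against 28.6% of genes of 30 to 300 kb and 45.4% of genes of 100 to 300 kb. Per Mb of interior, the density was 2.97 peaks (exact Poisson interval 2.78 to 3.17) in very long genes and 5.43 (5.16 to 5.71) in genes of 100 to 300 kb. It was 3.33 at 300 to 500 kb, 3.67 at 500 to 1000 kb and 1.31 (1.06 to 1.60) at 1000 kb or more. The genes of 1000 kb or more had the lowest density of these 3 length classes. In the class of 500 to 1000 kb, Gm37013, Gm38666 and Gm38667 are overlapping records that hold the same 20 peaks. Each record counted them, which raises the density of that class, and the intervals make no allowance for it.

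The density also varied with the distance from the nearer end. From 1 to 10 kb from an end the density was 6.67 peaks per Mb in very long genes and 6.77 in genes of 100 to 300 kb. From 10 to 50 kb it was 3.52 (2.98 to 4.13) against 5.43 (5.05 to 5.82), and from 50 to 150 kb 3.28 (2.95 to 3.65) against 5.04 (4.63 to 5.48). At 150 kb or more from both ends, a distance that genes under 300 kb do not have, it was 2.33 (2.08 to 2.59). The intervals next to the ends thus overlapped widely, and at equal distances farther in the very long genes had the lower density. Peaks that lay at neither a listed start nor an end of another gene, coding or not, gave 2.72 against 3.91 per Mb from 10 to 50 kb. From 50 to 150 kb they gave 2.68 against 3.81.

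**Figure D5:**
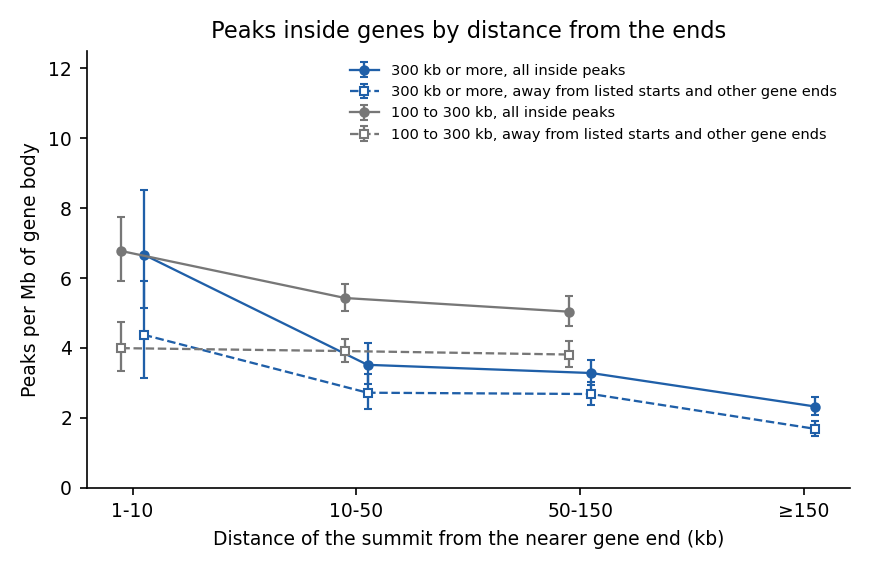
Inside peaks per Mb of gene by distance from the nearer gene end in kb, for very long genes and genes of 100 to 300 kb, with 95% exact Poisson intervals; dashed lines leave out peaks at listed starts and at ends of other genes. With all inside peaks the groups sit at 6.67 and 6.77 nearest the end, and at 3.52 and 5.43 from 10 to 50 kb.

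Counting a peak once for each gene that holds it, the very long genes had 899 inside peaks, from 849 different peaks. Of these, 95 (10.6%) lay at a listed start of the same gene, with a median fold of 26.8. Another 117 lay at an end of another gene, with a median of 16.6. The other 687 (76.4%) lay at neither, with a median of 8.75 and a median width of 939 bp. A fold of 30 or more was reached by 46.3%, 23.9% and 6.40% of them. The 116 peaks of fold 30 or more thus lay as often at neither place (44) as at a listed start (44), and 28 lay at an end of another gene. A start was listed for 405 of the 533 genes, and inside peaks of the others could not be counted at a start of their own. Some of the 687 peaks at neither place, and of the 44 strong ones, may therefore lie at starts that were not listed.

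Among the 334 end-marked genes, 210 also had an inside peak, and in 49 the strongest inside peak had a higher fold than the end peak. No such counts are given here for shorter end-marked genes, and a longer gene has more room for a peak. Whether end-marked or not, 55.0% of very long genes had an inside peak, against 45.4% of genes of 100 to 300 kb and 28.6% of genes of 30 to 300 kb. The genes with most inside peaks were Gm37013, Gm38666 and Gm38667, with 20 each, but these are overlapping records of chromosome 18 that hold the same peaks. They span 868 to 889 kb, and their end peak also lay at an end of clustered gamma protocadherin genes. Nfia, a nuclear factor I gene of glial and neural progenitor development, had 19 and no end peak. The strongest of these had a fold of 45.5 over 7166 bp and lay at an end of Gm38709. Pde4b had 17, and Zfhx3, a homeobox zinc finger gene, also had 17 without an end peak, the strongest with a fold of 45.6 over 6178 bp. Both Nfia and Zfhx3 therefore combined many inside peaks with an unmarked outer end.

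In the 83 genes marked inside only, the strongest inside peak of each gene, out of up to 19, had a median fold of 27.6. It was 30 or more in 40 genes and under 10 in 9. No such values are given here for shorter genes marked inside only. Over all inside peaks the median fold was 10.1 in very long genes, and 12.9% reached 30, against 19.9% in genes of 30 to 300 kb. In 23 of the 83 genes the strongest inside peak lay within 10 kb of an end, and in 33 it lay 100 kb or more away. Of 66 with a listed start, 41 (62.1%, 49.3% to 73.8%) had a peak at one. The share was 70.3% (66.1% to 74.3%) among 499 such genes of 30 to 300 kb, and the intervals overlapped. The highest fold was at Nebl, which encodes the actin-binding protein nebulette, with 67.3 at a listed start 4.22 kb from the end of the record. Gphn, the gephyrin scaffold of inhibitory synapses, had 48.5 at a listed start 9.61 kb from an end. Psd3, an exchange factor for ARF GTPases, and Stag1, a cohesin subunit, had 46.3, the latter at a listed start 46.1 kb from an end. Nebl, Gphn and Stag1 were thus marked at an annotated start that is not the outermost one of the record. Counting a fold of 30 or more at an end or inside, 245 of the 533 very long genes carried a strong peak. No such count is given here for shorter genes.

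By chromosome, the end-peak share of very long genes ran from 8 of 23 on chromosome 11 (34.8%, 16.4% to 57.3%) to 19 of 22 on chromosome 15 (86.4%, 65.1% to 97.1%). These chromosomes were picked as the lowest and the highest of 19, so the gap between them is a description.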

How the data were processed

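H3K4me3 chromatin immunoprecipitation was measured in 1 library of adult mouse neural progenitor cells, with 1 input library; the deposited file is the peak list of the former. Per the file headers, the authors called peaks with MACS 1.4.2 against the input at a p cutoff of 1e-05 (band width 200 bp, 1 tag per position). The build is mm10 per the submitters' processing notes, which give MACS2 2.1.0 as the caller. Which aligner was used is not stated there. The file headers show that 18156769 of 19147183 H3K4me3 tags and 17831241 of 18441952 input tags were kept. For each peak the deposited file gives a tag count, not normalized, a score of 10 times the negative log10 p, a false discovery rate in percent and a fold enrichment over input, which is a ratio. These are the authors' values for single peaks and served only for description, ranking and filtering.

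Genes came from a RefSeq table of GRCm38.p6, with no strand; starts and strands came from a RefSeq promoter table. Python 3.11.15 with pandas 2.3.3 and scipy 1.17.1 joined peaks to genes and gave Clopper-Pearson, Newcombe (differences of shares) and Poisson intervals, which cover counting error only. The joining was tested on simulated peaks. Genes and peaks of 1 library are not replicates, so no p-value was computed. The very long genes, the gene lists and the comparisons were chosen with earlier results of these data known.

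The rule for named genes took the 10 longest, the 5 with the highest end fold, the 5 with the widest end peak, the 5 marked inside only with the highest fold, the 5 with most inside peaks, in each family the 2 longest with and the 2 longest without an end peak, and 3 genes on each side of 300 kb. Promoter windows came from the 2 longest marked and the 2 longest unmarked genes with a listed start. A few genes that the rule names are not reported here. Reln, Grin2b, Shank2, Dnah11, Cfap299, Cntnap4, the Cntnap5 genes and the Robo2 windows were chosen after their values were seen. Alternatives to the window, the peak threshold, the length limit, the reference set and the gene records were computed.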

Additional observations from a re-analysis of the deposited data

How the results depend on the processing

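No paired analysis was possible because there is 1 H3K4me3 library. Of 73 alternative values, 54 stayed close to the value reported, 16 moved and 3 reversed. Close meant within the interval of that value, except for the 6 counts of families, which have no interval and were judged by their ratio. The end-peak share of 62.7% was 52.9% when the peak summit had to lie in the end window. It was 57.2% when peaks shared with another gene were left out and 53.2% at a length limit of 500 kb. Among the 405 genes with listed starts, 68.4% had a peak within 1 kb of any listed start, internal ones included. That measure replaces the ends by listed starts, and by the end rule 254 of the 405 had an end peak. The inside-only share of 15.6% was 25.1% by summit and 18.9% without shared peaks. With listed starts in place of ends, 10.6% of the 405 genes had a peak but none at a listed start. By the end rule, 66 of the 405 were marked inside only. The share with no peak, 21.8%, was 25.7% for peaks of fold 10 or more and 29.2% at 500 kb. The difference from all shorter genes, -5.01 points, was -0.419 by summit, -2.13 without predicted genes, -2.86 for peaks of fold 10 or more and -3.90 for peaks with a -log10 p of 10 or more (intervals of these 4 include 0). It was -15.8 without shared peaks, -9.31 at 200 kb and -9.09 with listed starts in place of ends. The difference reversed to 4.59 at 500 kb and to 7.21 against genes of 30 kb or more. The difference from genes of 30 to 300 kb, 7.21 points, an alternative set chosen after seeing the data, was 16.6 at 500 kb, 3.08 at 200 kb with an interval that includes 0 (-0.0731 to 6.35), and reversed to -0.574 without shared peaks. The density of 2.97 inside peaks per Mb was 2.07 for peaks with a -log10 p of 10 or more and 2.53 without peaks at ends of other genes. The cause of the shifts with the summit and the peak threshold was not tested. The count of 12 families with a lower share in long genes ran from 9 to 13. Depth limits the statements on absence: a gene with no peak may carry a mark too weak to be called, and 1 library gives no spread between cultures. CG content was not compared and its alternatives were not run, because 76.0% of the very long genes had a start where 80% was required.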
